A study of Mus musculus with 249 samples.

Results

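MHC class I molecules carry peptides from inside the cell to its surface, where CD8 T cells and NK cells read them. The genes of that pathway were taken from brain RNA of F2 mice as the probes whose only gene symbol is H2-K1, H2-Bl, B2m, Psmb8, Psmb9 or Tapbp, with H2-D1, Tap1, Tap2 and H2-T23 added where the probe table held them. Of these 10 genes 9 were measured, with 1 probe each, among 11633 genes and 23388 probes on the array. H2-D1 was not analysed here. The mice came from an intercross of C57BL/6J and C3H/HeJ, and every animal lacked ApoE. They received a Western diet between week 8 and week 24. Females and males were included, but sex, genotype and batch were not given for each animal. There was 1 group of 249 animals, with 1 array per animal and no replicate array. Each value is the log10 ratio of the animal's brain RNA to a pool made from all samples, so a difference of 0.301 is a factor of 2 and positive values are higher in the animal. A probe level cannot be compared between genes on this scale, only the animals for 1 gene.

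A class I molecule consists of a heavy chain and the light chain beta-2-microglobulin. Its peptides are cut by the proteasome, in which interferon-inducible subunits can replace the constitutive ones, carried into the endoplasmic reticulum by the transporter TAP, and loaded with the help of tapasin. In the healthy brain class I is low in most cells, higher in endothelium and microglia, and induced by interferons. H2-K1 encodes a classical heavy chain, H2-T23 the heavy chain of the nonclassical molecule Qa-1, and B2m the light chain. Psmb8 and Psmb9 encode inducible catalytic subunits of the proteasome, Tap1 and Tap2 the subunits of the transporter, and Tapbp tapasin. H2-Bl is annotated as a transcribed pseudogene in GRCm38.p6. B2m lies on chromosome 2 and the other members on chromosome 17, in the order Tapbp, H2-K1, Psmb9, Tap1, Psmb8, Tap2, H2-D1, H2-T23 and H2-Bl. No protein-coding gene lies between Psmb9, Tap1, Psmb8 and Tap2, while 10 lie between H2-K1 and Psmb9, 67 between Tap2 and H2-D1, and 33 between H2-D1 and H2-T23. Heavy chain genes have near-identical relatives, and which class I transcripts each probe binds was not analysed here, so the values of H2-K1, H2-T23 and H2-Bl are uncertain in that respect. Whether the Tapbp probe measures tapasin transcripts was not analysed here either, so Tapbp values are those of the probe that carries this symbol.

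Promoter windows of B2m, of H2-K1 and H2-T23, of Psmb9 and Psmb8, and of Tapbp are shown first. The results below turn on B2m and on these pairs of heavy chains and proteasome subunits, and Tapbp did not pass in the fit on B2m. The windows come from RefSeq (GRCm38.p6), run from 250 bases before the start to 50 after it, and are written 5′ to 3′ on the strand of the gene. Capitals mark matches, on either strand, to 5 motifs. These are the core of the interferon-stimulated response element (GAAA, any 2 bases, GAAA), the gamma-activated site (TTCNNNGAA), the kappa B sequence of the class I enhancer (GGGGATTCC), the core site for cyclic AMP response factors (TGACG) and the CCAAT box (CCAAT). No match overlaps another. The windows are B2m at chr2:122147437-122147736 on the plus strand, H2-K1 (its first listed start) at chr17:34000298-34000597 on the minus strand, H2-T23 at chr17:36032652-36032951 on the minus strand, Psmb9 at chr17:34187281-34187580 on the minus strand, Psmb8 at chr17:34197945-34198244 on the plus strand, and Tapbp at chr17:33919228-33919527 on the plus strand.
B2m: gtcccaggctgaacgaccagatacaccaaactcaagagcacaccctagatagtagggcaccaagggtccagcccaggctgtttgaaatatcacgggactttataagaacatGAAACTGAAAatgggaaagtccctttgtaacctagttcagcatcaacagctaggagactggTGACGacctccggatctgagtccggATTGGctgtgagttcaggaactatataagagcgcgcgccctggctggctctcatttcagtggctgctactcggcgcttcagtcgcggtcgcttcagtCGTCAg
H2-K1: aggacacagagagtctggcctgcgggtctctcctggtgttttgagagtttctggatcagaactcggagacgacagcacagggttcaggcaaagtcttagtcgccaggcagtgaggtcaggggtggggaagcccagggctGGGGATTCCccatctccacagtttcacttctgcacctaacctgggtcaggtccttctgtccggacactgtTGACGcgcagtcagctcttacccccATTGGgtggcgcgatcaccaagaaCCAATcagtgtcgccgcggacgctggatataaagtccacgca
H2-T23: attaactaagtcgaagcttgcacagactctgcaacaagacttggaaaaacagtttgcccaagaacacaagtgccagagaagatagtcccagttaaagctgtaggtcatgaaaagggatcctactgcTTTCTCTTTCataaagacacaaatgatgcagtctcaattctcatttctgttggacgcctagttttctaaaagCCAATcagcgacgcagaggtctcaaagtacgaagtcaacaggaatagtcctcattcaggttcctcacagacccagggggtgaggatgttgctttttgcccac
Psmb9: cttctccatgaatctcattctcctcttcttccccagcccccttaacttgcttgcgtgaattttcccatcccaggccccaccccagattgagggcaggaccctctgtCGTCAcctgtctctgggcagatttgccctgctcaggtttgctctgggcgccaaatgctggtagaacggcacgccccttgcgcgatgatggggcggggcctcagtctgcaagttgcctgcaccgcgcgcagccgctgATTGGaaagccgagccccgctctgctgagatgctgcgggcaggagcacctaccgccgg
Psmb8: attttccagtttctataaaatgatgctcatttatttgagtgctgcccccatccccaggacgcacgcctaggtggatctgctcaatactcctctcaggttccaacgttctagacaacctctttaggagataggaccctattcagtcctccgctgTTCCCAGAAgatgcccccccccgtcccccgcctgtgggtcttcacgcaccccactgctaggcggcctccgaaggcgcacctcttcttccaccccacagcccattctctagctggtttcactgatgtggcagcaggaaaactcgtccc
Tapbp: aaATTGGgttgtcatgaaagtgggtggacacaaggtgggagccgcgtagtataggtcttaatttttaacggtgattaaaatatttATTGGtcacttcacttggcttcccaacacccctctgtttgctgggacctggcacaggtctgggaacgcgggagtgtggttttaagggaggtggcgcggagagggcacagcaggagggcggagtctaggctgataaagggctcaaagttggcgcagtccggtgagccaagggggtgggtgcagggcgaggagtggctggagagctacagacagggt

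Windows were found for 8 of the 10 genes, H2-D1 included. The response element core stood in the windows of B2m and H2-T23, against 3.44% of the 32851 promoter windows in the table. TTCNNNGAA stood in that of Psmb8 (8.30% of all windows). GGGGATTCC stood in those of H2-K1 and H2-D1 (0.250% of all windows). TGACG stood in 5 of the 8 (20.8% of all windows) and CCAAT in 7 of the 8, Psmb8 being the exception (37.4% of all windows). The window of Tap1 overlaps that of Psmb9 on the opposite strand. A match is a description of letters and not evidence of a bound factor. Only exact matches to the stated motifs were sought, so a window without a match can still hold a variant of the site.

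Array medians lay between -0.00627 and 0.0250, and the median of the SDs over probes was 0.0764. The array of animal 144 stood apart, with an SD of 0.392, a median of 0.773 for lung markers and a median of -1.08 for neuronal markers. On the arrays other than those of animals 144 and 208 the neuronal markers had medians between -0.292 and 0.120 and the lung markers between -1.48 and -0.977. Animal 144 was left out of the comparisons below, and is included only in alternatives named as such. Animal 208 stood apart in the genes described here, so results are given with it and without it, which leaves 247 animals. In whole brain RNA, more cells of a type and more RNA per cell cannot be told apart.

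The heavy chain H2-K1 had -0.302 in the lowest animal, a median of -0.0961 and 0.536 in the highest. The highest was animal 208, and the next was animal 14 at 0.0856. Without animal 208 the 5th and 95th percentiles of H2-K1 lay 1.78-fold apart. H2-T23 had a lowest value of -0.236, a median of -0.0686 and a highest of 0.669, again in animal 208, with animal 223 next at 0.124. H2-Bl behaved differently from both. It ran from -0.658 over a median of 0.0133 to 0.395, and its 5th and 95th percentiles lay 5.59-fold apart. Its SD of 0.246 was larger than that of 99.5% of the probes. Animal 208 had an H2-Bl value of -0.0166, in the middle of the others.

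The light chain B2m ran from -0.505 in animal 336 over a median of -0.0865 to 0.706 in animal 208. The next highest was 0.155, in animal 223. Its SD of 0.101 lay above that of 91.1% of the probes, and without animal 208 above 85.6%. Without that animal its 5th and 95th percentiles lay 1.89-fold apart, a wider range than that of H2-K1, Psmb8, Psmb9 or H2-T23.

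Among the inducible proteasome subunits, Psmb9 ran from -0.303 over a median of -0.133 to 0.721, and Psmb8 from -0.239 over a median of -0.0903 to 0.697. Animal 208 was the highest for both. The next values were 0.0738 for Psmb9 in animal 47 and 0.123 for Psmb8 in animal 348, so no other animal came near. Without animal 208 the central range was 1.73-fold for Psmb9 and 1.57-fold for Psmb8.

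Tap1 ran from -0.189 over a median of -0.0129 to 0.564 in animal 208, and Tap2 from -0.251 over a median of -0.0222 to 0.402 in the same animal. For both subunits of the transporter the second highest was animal 213, at 0.369 for Tap1 and 0.207 for Tap2. In that animal Psmb9 was -0.279 and Psmb8 -0.167, at ranks 246 and 235 from the highest, and H2-Bl was the lowest of all, at -0.658. Animal 213 therefore combined high transporter with low proteasome values, unlike animal 208. Without animal 208 Tap1 had the narrowest central range of the members, 1.37-fold, and Tap2 had 1.60-fold. Tapbp ran from -0.216 over a median of 0.00580 to 0.226, with no animal apart, and animal 208 had -0.102, at rank 227 from the highest.

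Most members lay below the pool on average. The mean was below 0 for 8 of 9 members, against 31.8% of all probes, and below -0.05 for 6 of 9, against 2.32% of all probes. The mean of Psmb9 was the lowest, -0.131 ± 0.0720 without animal 208 (SD, n = 247). Tapbp was the only member with a mean above 0, at 0.0160 ± 0.0877. H2-Bl had a mean of -0.0614 with animal 208, but its median was 0.0133. The pool was made from all samples, and so would hold animals 144 and 208. Animal 144 was the highest of all arrays for 7 of 9 members, and animal 208 the highest of the rest for 7 of 9. The part of these samples in the offset from the pool was not tested.

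**Figure D1:**
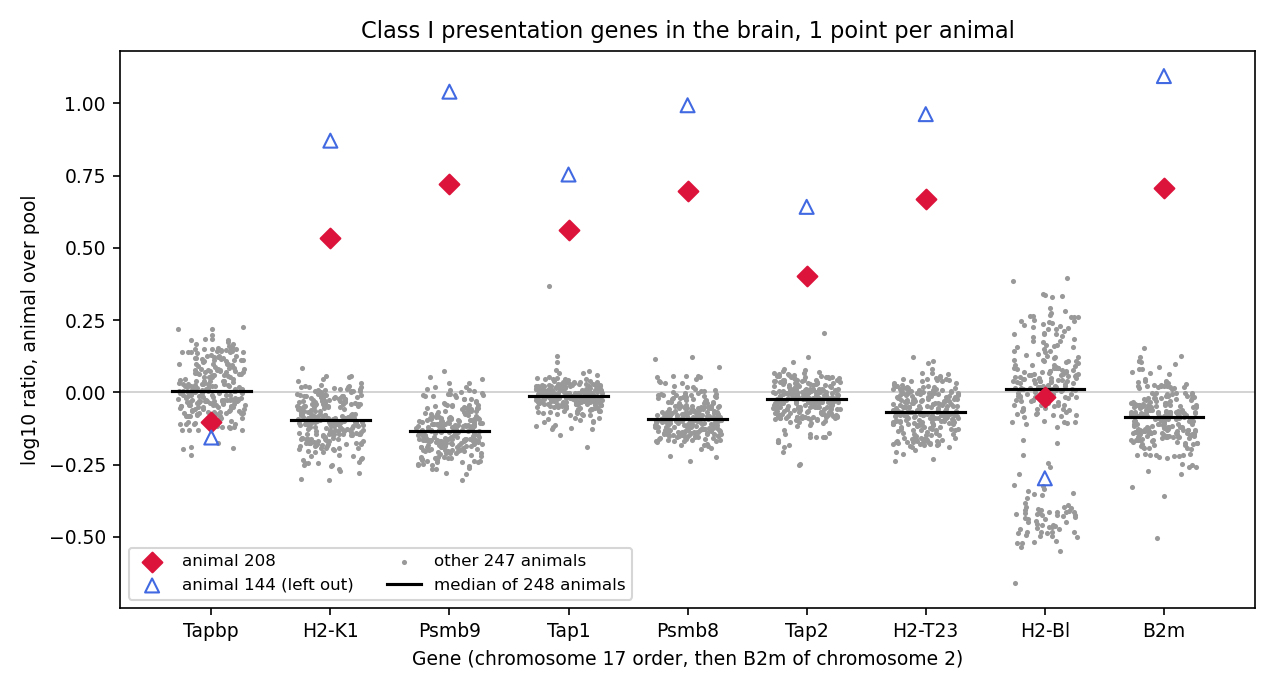
Values of the 9 class I presentation genes, with 1 grey point for each of 247 animals, a red diamond for animal 208, an open blue triangle for animal 144 and a bar for the median of all but animal 144. The vertical axis is the log10 ratio of animal to pool. Animal 208 lies above all grey points in 7 of 9 genes and among them in Tapbp and H2-Bl, and the points of H2-Bl form a lower and an upper group.

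Animal 208 was the highest for 7 of 9 members, against 1.89% of all probes. Set against the median over the animals, it had 7.15-fold the level of Psmb9, 6.20-fold that of B2m, 6.12-fold that of Psmb8, 5.46-fold that of H2-T23, 4.30-fold that of H2-K1, 3.77-fold that of Tap1 and 2.65-fold that of Tap2. These folds fell in the order of proteasome and light chain, heavy chains and transporter. Each rests on 1 probe of unknown intensity, and whether the transcripts themselves rose in that order was not tested. This is 1 animal with 1 array, so there is no replicate check and no test. The SD over probes of that array was 0.117, at rank 11 from the largest of 249 arrays, against a median of 0.0764. Other interferon-induced genes stood high in the same brain. The median of 18 interferon-induced genes was 0.669 in animal 208, against -0.110 to 0.223 in the other 247. The median of 7 interferon gamma inducible GTPases was 0.686, against -0.251 to 0.184. Of the other class I heavy chains, 5 of 14 were highest in this animal, among them H2-T9 at 0.536, H2-Q1 at 0.488 and H2-Q8 at 0.486. Irf1, a transcription factor of class I genes, stood at 0.570, against at most 0.0471 in the others. Nlrc5, the class I transactivator, stood at 0.0492 inside the range of the others. The Nlrc5 probe varied little, its SD without animal 208 being above that of only 7.22% of the probes. A dim probe cannot be told from a stable gene, so its value does not show whether Nlrc5 was raised. The median of 10 MHC class II genes was 0.0709, against -0.0486 to 0.0216, and 2 of the 10 were highest in animal 208. Of the 3 other inducible or activator genes of the proteasome, 1 was highest in this animal on all its probes. That was Psme2b, with 0.245 and 0.238 on its 2 probes, against at most 0.0922 and 0.0904 in the others. Psme1 had 0.140 and 0.0881, against at most 0.120 and 0.123, and Psmb10, the remaining inducible catalytic subunit, had 0.235, against at most 0.347. Calreticulin and calnexin, chaperones of peptide loading, were not high. The 2 Calr probes had -0.0218 and -0.223 and Canx had -0.0422. The median levels of cell type markers were within the range of the other brains. That of the 8 measured microglia markers was 0.149, against -0.233 to 0.195, and 1 of 8 was highest in animal 208. That of 13 lymphocyte and NK cell markers was 0.0950, against -0.0497 to 0.121, and 4 of 13 were highest in this animal. By the score of these markers used below, however, animal 208 did stand apart, together with animals 151, 178, 213 and 336. The 11 endothelial markers had a median of -0.0208, against -0.211 to 0.0575, with none highest, and the lung markers had -1.20, inside the range given above. The part of these cells in the values of animal 208 was not tested.

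H2-Bl split the animals into clusters. A pair of normal components with 1 variance described it better than a single one, by 126 units of the Bayesian information criterion, with 66 animals in the lower cluster around -0.429 and 182 in the upper around 0.0718. The lower cluster ended at -0.215 and the upper began at -0.174. The means were 3.17-fold apart, and the lower cluster held 26.6% of the animals (exact Clopper-Pearson 95% interval 21.2 to 32.6%). With 3 components fixed at 25%, 50% and 25%, the shares an F2 cross gives at a locus, the component means were -0.432, 0.0154 and 0.213. By this rule H2-Bl was the only member of 9 called discrete, against 1.27% of all probes, and it was also the only one without animal 208, against 1.28%. No genotype is given in the labels, and no animal was assigned one. A member with closely spaced components can be missed by the rule, so the absence of a call for the other 8 says little about them.

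Every probe on the array was then fitted on B2m with limma, with Benjamini-Hochberg adjustment over all probes. The question was whether the members encoded on chromosome 17 follow the light chain, which is encoded elsewhere. Of the 8 other members, 6 were higher where B2m was higher, against 23.3% of all probes, and these 6 were H2-K1, H2-T23, Psmb8, Psmb9, Tap1 and Tap2. Without animal 208 the same 6 passed, against 21.8% of all probes. Tapbp and H2-Bl did not pass. The median r of the 8 members without animal 208 was 0.309, against 0.00785 over all probes.

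Psmb9 followed B2m most closely. Its slope without animal 208 was 0.471 ± 0.0429 (SE, n = 247, limma adjusted p = 3.4e-20), in log10 units of Psmb9 per log10 unit of B2m. Pearson's r was 0.574 and Spearman's rho 0.576, both with a permutation p of 1e-05, the smallest that 100000 permutations can give. It was 0.570 without the 2 animals farthest from the Psmb9 median, 0.581 among the higher and 0.570 among the lower animal numbers, split at the median number. H2-K1 had r = 0.379 and rho = 0.363 (both permutation p = 1e-05, limma adjusted p = 1.3e-08), and r = 0.349 among the higher and 0.421 among the lower numbers. Psmb8 and Tap2 each had r = 0.350 (permutation p = 1e-05 for both). Their limma adjusted p was 2.2e-07 each, and among the higher numbers r was 0.356 for Psmb8 and 0.40 for Tap2, against 0.346 and 0.291 among the lower numbers.

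Tap1 and H2-T23 followed B2m more loosely. Leaving out animals 208 and 213, Tap1 had r = 0.256 and rho = 0.274 (permutation p = 9e-05 and 6e-05, n = 246, limma adjusted p = 0.00028). H2-T23 had r = 0.223 and rho = 0.182 (permutation p = 0.00035 and 0.0044, n = 247, limma adjusted p = 0.0018), and among the lower animal numbers it did not pass (limma adjusted p = 0.188). There 5 of 8 members passed, against 19% of all probes. Tapbp had r = 0.116 and rho = 0.134 (permutation p = 0.0698 and 0.0346, limma adjusted p = 0.131). The slope of H2-Bl on B2m without animal 208 was -0.259 ± 0.177 (SE, limma adjusted p = 0.238). With the interferon score added to the fit, or the microglia and endothelium scores, 6 of 8 members passed without animal 208, against 24.2% of all probes in each of these fits.

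The other genes of the pathway were read from the same fit without animal 208, in which 21.8% of all probes were higher and 19.8% lower with B2m. Of the 15 probes of other class I heavy chains, which cover 14 of 25 listed genes, 5 were higher and none lower. H2-Q1, a Qa heavy chain, had a slope of 0.223 ± 0.0232 (SE, limma adjusted p = 1.9e-16). H2-Q8 had 0.352 ± 0.0408 (limma adjusted p = 6.8e-14), and H2-M3, whose product presents formylated peptides, had 0.186 ± 0.0392 (limma adjusted p = 2.8e-05). Of the 9 probes of interferon gamma inducible GTPases, 7 were higher, led by Irgm2 and Gbp2 with r of 0.519 and 0.491. Of 19 probes of interferon-induced genes 11 were higher and 1 lower. Bst2, a factor that tethers virus particles to the membrane, had r = 0.455, and Zbp1, a nucleic acid sensor, had -0.254.

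Constitutive proteasome subunits moved with B2m too. Of their 32 probes, 18 were higher and 4 lower, with a median r of 0.212. Psmc3, an ATPase of the proteasome cap, and Psmb3, a subunit of the core, had r = 0.559 and 0.558, near that of Psmb9. Psme3, which encodes an activator subunit, was lower, with r = -0.280. The probes of the inducible and activator list split. The 2 probes of Psme1, a subunit of the interferon-inducible activator, were higher (r = 0.343 and 0.334), and the 2 probes of Psme2b were lower (r = -0.299 and -0.269). Of 14 probes of class I transcription regulators 4 were higher and none lower, with Irf2 and Creb1 at r = 0.341 and 0.275. Nlrc5 and Irf1 did not pass in these brains (r = 0.146 and 0.138, limma adjusted p = 0.0541 and 0.0684). Of the 7 probes of peptide loading and trimming genes 1 was higher and 1 lower, and of the 8 probes of class I-like molecules 1 was higher and 2 lower. Of 11 MHC class II probes 3 were higher and none lower.

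The genes most like B2m by r changed with animal 208. With animal 208 the 20 closest non-member genes were Ifih1, H2-Q1, Ifi204, Irgm2, Ccl12, Cxcl10, Bst2, Ifit1, H2-Q8, Gbp2, C1ra, Ehd4, Cd72, Apobec1, Tgtp1, Ifi47, Ly6f, Ccl2, Oasl1 and Osmr, with r between 0.561 and 0.748. Ifih1, a sensor of viral RNA that lies on chromosome 2 like B2m, was first. Over the 247 other animals only Ifih1 (r = 0.663) and Ehd4 (r = 0.574), both on chromosome 2, stayed among the 20 closest, so the lists shared 2 genes. The next were Ppia, a cyclophilin, at 0.566, and the proteasome genes Psmc3 and Psmb3. The 5 genes farthest from B2m with animal 208 were Nek4, DNAJB12, Kcnip3, Cops7b and Mitf, with r between -0.551 and -0.516.

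How the members followed each other depended on animal 208. Each of the 36 pairs, those with B2m included, was called where it passed in both directions of fitting. With animal 208 23 pairs were positive and 3 negative, and without it 16 were positive and 3 negative. Without animal 208 the share of all probes called in these fits was 1.37% for H2-T23, 2.26% for H2-Bl, 5.61% for H2-K1, 19.6% for Psmb9, 26.3% for Psmb8, 41.5% for B2m, 42.9% for Tap2, 48.7% for Tapbp and 49.9% for Tap1. With animal 208 it was 2.99% for H2-T23, 2.22% for H2-Bl, 5.67% for H2-K1, 21.6% for Psmb9, 5.64% for Psmb8, 43.5% for B2m, 43% for Tap2, 49.7% for Tapbp and 32.7% for Tap1. A call in the fits on Tap1, Tap2, Tapbp or B2m is therefore a common event on this array, and one in the fits on H2-T23, H2-Bl or H2-K1 a rare one. The closest pairs were Psmb8 and Psmb9, with Tap1 alone between them on the chromosome (r = 0.802, rho = 0.775) and the heavy chains H2-K1 and H2-T23 (r = 0.743, rho = 0.734), each with a permutation p of 1e-05. Leaving out the 2 animals farthest from the median gave 0.793 and 0.736. The adjusted p of the weaker of both limma fits was 2.4e-52 and 2.2e-40.

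With animal 208 all 4 combinations across those 2 pairs were called positive, with limma adjusted p-values between 5.8e-07 and 0.0071. Without that animal none of the 4 passed, so these calls rest on 1 array. H2-K1 had r = 0.0630 with Psmb9 and 0.0938 with Psmb8, although no more than 10 protein-coding genes separate it from Psmb9 (permutation p = 0.326 and 0.141, limma adjusted p = 0.606 and 0.403). H2-T23 had r = -0.142 with Psmb9 and -0.119 with Psmb8 (permutation p = 0.0259 and 0.0611, limma adjusted p = 0.414 and 0.564). Tap1, which lies between Psmb9 and Psmb8, had r = 0.403 with Psmb8 and 0.281 with Psmb9 without animals 208 and 213 (both permutation p = 1e-05). It had r = 0.371 with Tap2 (permutation p = 1e-05). Tapbp, the member next to H2-K1, had r = 0.0112 with it (permutation p = 0.860). Without animal 208 Tapbp had 1 call, a negative one with Tap2, at r = -0.146 (permutation p = 0.0220, limma adjusted p = 0.0493). Without animals 208 and 213 that pair did not pass (limma adjusted p = 0.0888), and Tapbp was called with Tap1 instead, at r = 0.157 (permutation p = 0.0143, limma adjusted p = 0.0305). With ranks in place of values that pair was also called, at r = 0.151 (limma adjusted p = 0.0389). The shares of all probes given above come from fits on values that keep animal 213. They are therefore not the background for these calls of Tapbp with Tap1.

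**Figure D2:**
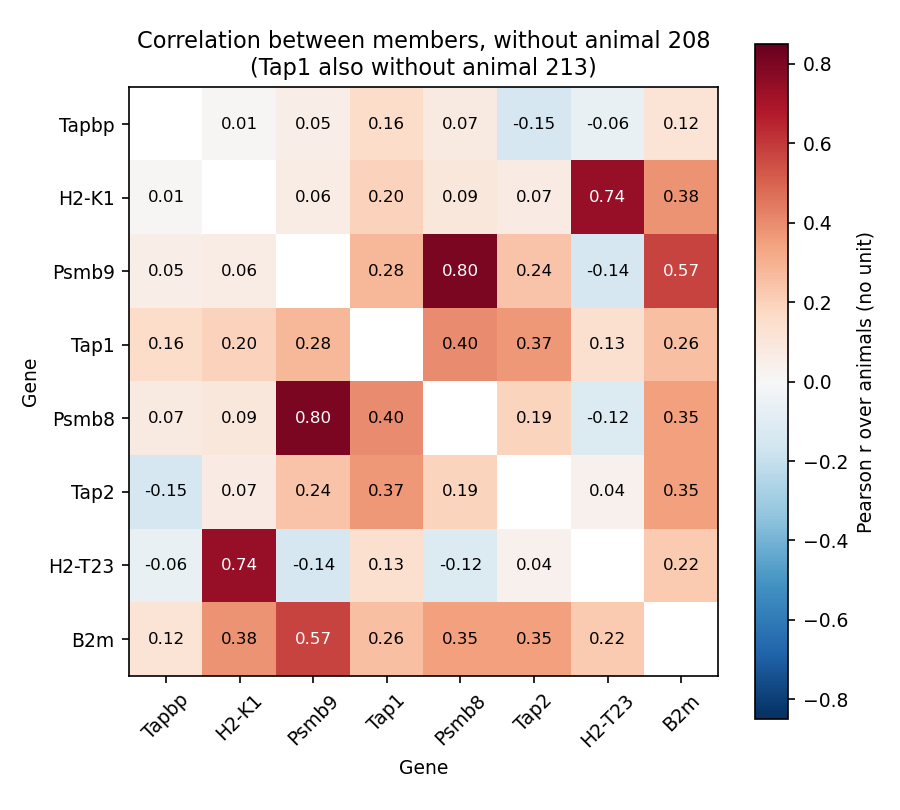
Pearson r between 8 members over 247 animals, without animal 208, or 246 animals for Tap1, without animals 208 and 213. Red is positive, blue is negative and H2-Bl is left out because its animals form clusters. Psmb8 with Psmb9 (0.80) and H2-K1 with H2-T23 (0.74) stand out, and the B2m row is positive throughout.

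H2-Bl was related to both pairs in opposite directions. Without animal 208, 2 of 8 members were higher where H2-Bl was higher, against 1.29% of all probes, and 2 of 8 were lower, against 0.967%. With animal 208 the counts were the same, against 1.28% and 0.937% of all probes. The slope was -0.225 ± 0.0113 for H2-T23 (SE, n = 247, limma adjusted p = 4.3e-50) and -0.179 ± 0.0161 for H2-K1 (limma adjusted p = 4.8e-21). It was 0.125 ± 0.0168 for Psmb9 (limma adjusted p = 3.2e-10) and 0.0979 ± 0.0143 for Psmb8 (limma adjusted p = 1e-08). Tap1, Tap2, Tapbp and B2m did not pass. All of these members but B2m lie on chromosome 17 with H2-Bl, while the shares are over probes of all chromosomes. Inheritance of neighbouring genes together in the cross, what each probe binds and shared regulation cannot be told apart in these data. The same holds for the pairs of members on chromosome 17 given above.

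Because H2-Bl is clustered, the relation was also read inside each cluster. The upper cluster can itself mix components. Without animal 208, the fit with fixed shares put component means at 0.0158 and 0.213, inside the range of the upper cluster. Values of r there can therefore reflect differences between components, and relations inside each component were not tested. In the upper cluster (n = 181) r was -0.620 for H2-T23, -0.371 for H2-K1, 0.356 for Psmb9 and 0.313 for Psmb8, each with a permutation p of 3e-05 or less, and all 4 passed the limma fit in that cluster, 2 higher against 7.94% of all probes and 2 lower against 7.32%. In the lower cluster (n = 66) H2-T23 had r = -0.382 and rho = -0.446 (permutation p = 0.00165 and 0.00018, limma adjusted p = 0.0541). H2-K1 had r = -0.0328, Psmb9 0.197 and Psmb8 0.138 there (permutation p = 0.793, 0.113 and 0.266). In the lower cluster no member of 8 passed the limma fit at an adjusted p under 0.05, against 1.8% of all probes higher and 1.16% lower. At an unadjusted p under 0.05 there were 2 of 8. Whether the slopes differ between the clusters was not tested. Tap1 had r = -0.336 in the lower cluster, and -0.111 without animals 28 and 213, so that value rests on those animals.

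**Figure D3:**
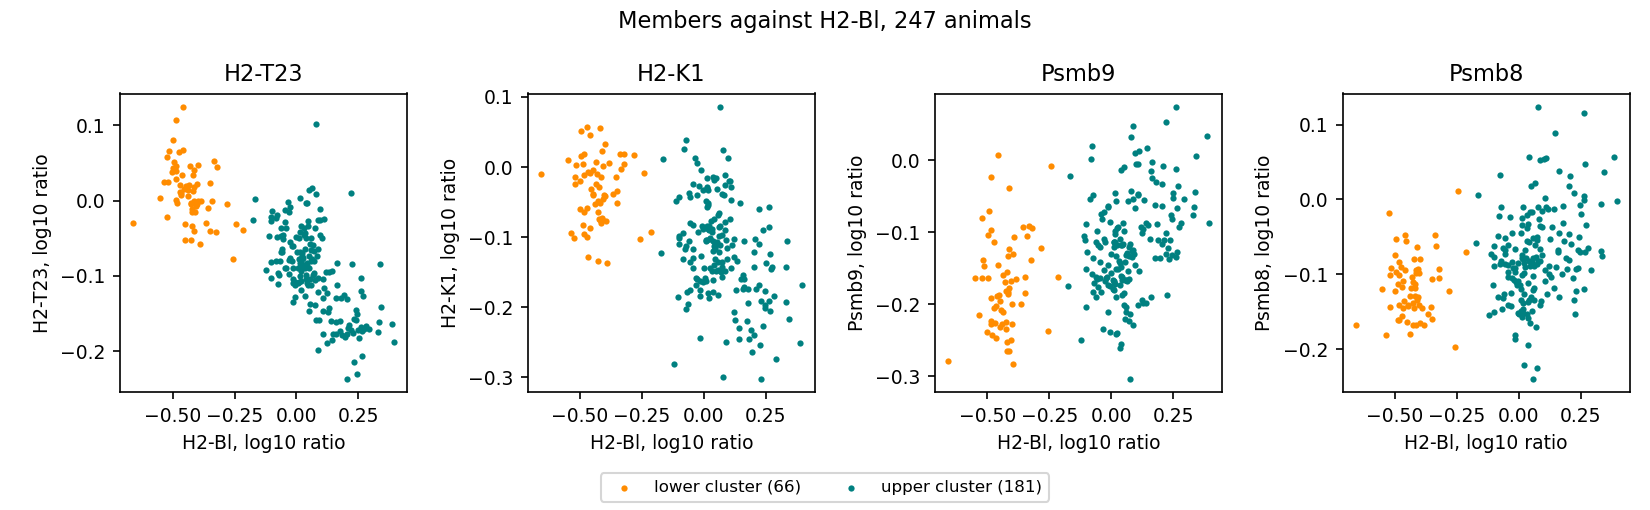
H2-T23, H2-K1, Psmb9 and Psmb8 (vertical axes) against H2-Bl (horizontal axes), all as log10 ratios of animal to pool, with 1 point for each of 247 animals, orange for the lower cluster of H2-Bl and teal for the upper. H2-T23 and H2-K1 fall with H2-Bl, and Psmb9 and Psmb8 rise with it.

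The 5 genes most like H2-Bl with animal 208 included were H2-Q5, Gnptg, Wtap, Rps2 and Fgd2. All 5 lie on chromosome 17, which holds 4.75% of the placed genes. Inside the upper cluster H2-Q5, a Qa heavy chain gene, had r = 0.603, and inside the lower cluster 0.344. Gnptg, a subunit of the enzyme that tags lysosomal proteins, had 0.508 in the upper and 0.320 in the lower cluster. Here too values in the upper cluster can mix components. Other heavy chains went the opposite way. In the fit without animal 208, 4 of 15 heavy chain probes were lower where H2-Bl was higher and 2 were higher. H2-T9 had a slope of -0.234 ± 0.0145 (SE, limma adjusted p = 1.2e-37), and H2-Q5 had 0.257 ± 0.0106 (limma adjusted p = 2.2e-63).

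Among the other members the closest genes differed. For H2-K1 with animal 208 they were H2-Q8, H2-T9, Oasl1, Irgm2 and Irf7, with r between 0.583 and 0.660. Without animal 208 they were Enpp5, Cyp4f14, H2-Q8, Aars2 and Cyp4f15, with r between 0.554 and 0.594, and all 5 of these lie on chromosome 17. With animal 208 the 5 closest to Psmb8 and the 5 closest to Psmb9 were the same genes, H2-Q1, Cxcl10, Ifi47, Parp14 and Ccl12. Without animal 208 the lists shared 2 of 5 genes, H2-Q1 and Tgtp1. There Psmb8 was closest to Tgtp1, an interferon-induced GTPase, and to the chemokine gene Cxcl10 (r = 0.586 and 0.580), and Psmb9 to H2-Q1 (r = 0.590). The Tapbp probe had other companions. Its closest genes with animal 208 were Gsx1 (r = 0.906), a homeobox gene of forebrain progenitors, Xpr1 (r = 0.859), a phosphate exporter, Ubxn10, Coro1c and Kcnh8. Without animal 208 Gsx1 and Xpr1 had r = 0.905 and 0.859. In the fit on Tapbp without animal 208, 18 of 32 constitutive proteasome probes were lower and 4 higher, against 26.4% and 22.3% of all probes. For B2m the same list ran the other way, as given above.

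The score of 18 interferon-induced genes, none of them a member, was higher where members were higher. In the limma fit on this score 7 of 9 members passed, all positive, against 3.39% of all probes. Without animal 208 6 of 9 passed, against 6.95%, and Tap2 was the member lost (adjusted p = 0.264). Animals 122, 243 and 348 also stood apart in the score. Without them and animal 208 the same 6 passed, against 4.74% of all probes. There r was 0.442 for Psmb8, 0.319 for Psmb9, 0.313 for H2-K1, 0.273 for B2m and 0.241 for H2-T23 (n = 244), and 0.305 for Tap1, without animal 213 as well (n = 243). The permutation p of these was 0.00023 or less. Psmb8 had r = 0.493 among the higher and 0.419 among the lower animal numbers. Tap2 had r = 0.153 and rho = 0.182 (permutation p = 0.0164 and 0.0047, limma adjusted p = 0.110), and Tapbp had r = -0.0301 (permutation p = 0.639). Among the higher animal numbers without animal 208 6 of 9 members passed, against 0.638% of all probes, and among the lower numbers 4 of 9, against 1.66%. H2-Bl had r = 0.0141 in its upper and 0.0765 in its lower cluster.

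Scores of cell types that carry class I were fitted in the same way. With animal 208, 6 of 9 members were higher with the microglia score, against 31% of all probes, and without it 4 of 9, against 32.2%. Without that animal Psmb8 had r = 0.443, Tapbp 0.331, Psmb9 0.296 and Tap1 0.257, the last without animal 213 (permutation p = 5e-05 or less). B2m had r = -0.0290 with this score (permutation p = 0.653). With the brain endothelium score 5 of 9 were higher without animal 208, against 23.5% of all probes, and 3 of 9 with it, against 23.4%. Without it the transporter led, with Tap1 at 0.442 without animal 213 and Tap2 at 0.376 (both permutation p = 1e-05). Tapbp followed at 0.297, while H2-T23 had 0.0150 (permutation p = 0.816).

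With the score of meninges and fibroblasts 4 of 9 were higher without animal 208, against 16.2% of all probes, and 3 of 9 with it, against 16.1%. Without it B2m led at r = 0.377 and rho = 0.413 (both permutation p = 1e-05), with Tap1 at 0.276, Tap2 at 0.270 and Psmb9 at 0.242. In the fit on B2m without animal 208 the probes of this list went both ways. Of 13 probes 8 were higher and 2 lower, against 21.8% and 19.8% of all probes. The probes of Col1a1 had r of 0.438, 0.376, -0.178 and -0.439 with B2m. With the lymphocyte and NK cell score 7 of 9 were higher and 1 lower with animal 208, against 34.5% and 29.4% of all probes. Animals 151, 178, 208, 213 and 336 stood apart in that score. Without them no member of 9 passed the limma fit at an adjusted p under 0.05, against 28.7% of all probes higher and 22.1% lower. At an unadjusted p under 0.05 there were 2 of 9. Which score a member followed most closely differed in value, and these differences were not tested. The part of these cells in the relations between members was not tested, beyond the fit with the microglia and endothelium scores given above.

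**Figure D4:**
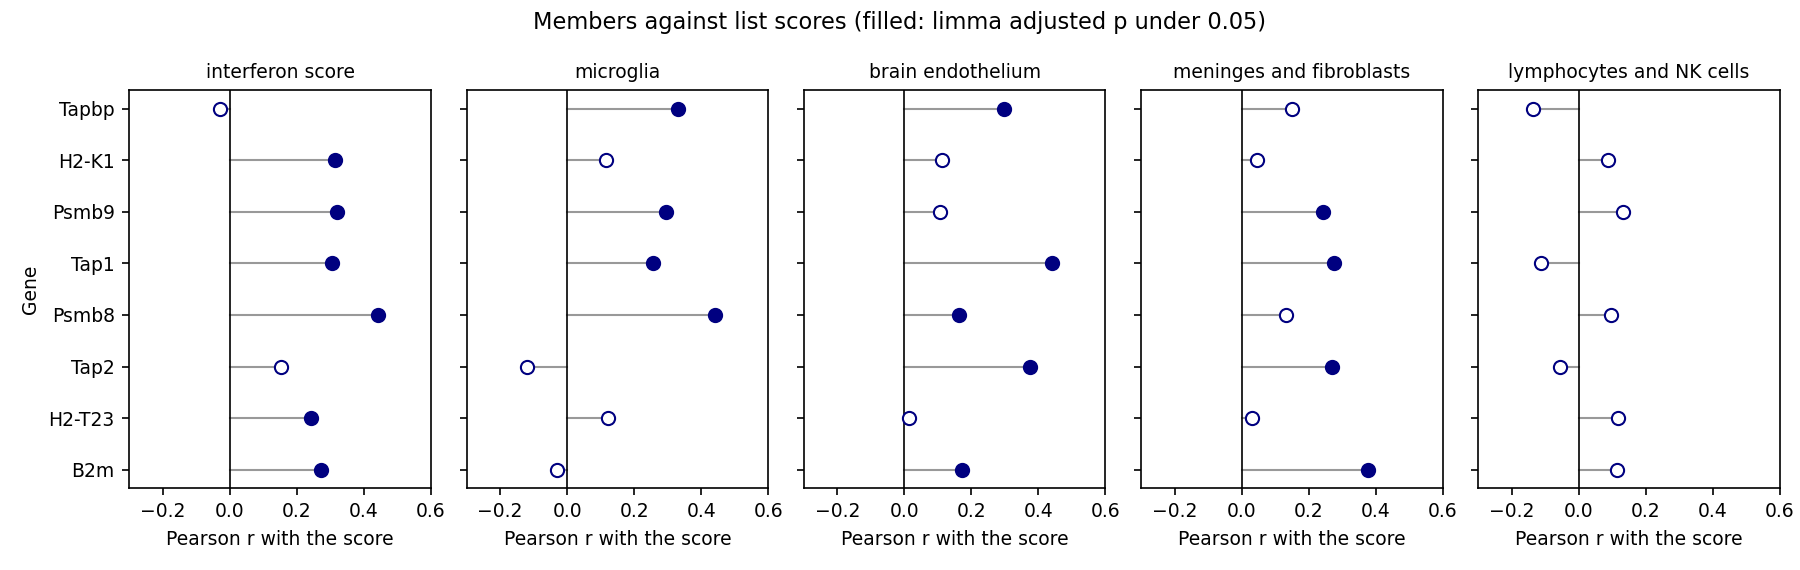
Pearson r (horizontal axes, no unit) of 8 members with the interferon score and 4 cell type scores over 243 to 247 animals, without the animals that stood apart in each score and, for Tap1, without animal 213. Filled points passed the limma fit over all probes, in which Tap1 kept animal 213 except in the lymphocyte panel. Psmb8 has the largest r with interferon (0.442) and microglia (0.443), Tap1 with endothelium (0.442) and B2m with meninges and fibroblasts (0.377).

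The animal number was the only label that differed between samples. In the limma fit on it no member of 9 passed, against 6.01% of all probes higher and 7.01% lower, and 2 of 9 had an unadjusted p under 0.05. Tapbp came closest, with r = -0.167 and rho = -0.159 without animal 208 (permutation p = 0.00858 and 0.0129), and with a limma adjusted p of 0.0564 with animal 208. The slope on B2m was compared between the higher and the lower animal numbers. With animal 208, which has one of the higher numbers, 2 of 8 members had a larger slope among the higher numbers, against 1.61% of all probes, and these were Tap1 and H2-T23. Without that animal no member of 8 passed in limma, none had an unadjusted p under 0.05, and 0% of all probes passed.

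Across the set, 104 relations between members or with a score were computed with permutations, and the limma adjusted p-values beside them are adjusted over all probes.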

How the data were processed

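Brain RNA (Cy3) of 249 F2 animals was hybridised against a pool (Cy5), per the labels. The authors deposited 1 log10 ratio per probe and array. How arrays were scanned, background-corrected and normalized is not given in the sources used here. Log base and direction are those at which the higher mode of the Y-linked probes (0.284 and 0.302) equals about the log10 of 2, which is 0.301. Values end at -2 and 2, and the method of centring stays unknown. Of 30876 array pairs, 6 correlated under -0.3 (lowest -0.352), and the direction was kept because the labels give 1 dye order. Intensities and depth are unknown, so precision is limited by how many arrays there are. The title and the source name of 1 sample disagree on the animal number, which was taken from the source name.

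Probes were named through the probe table, with 13645 probes carrying 1 symbol, 48 several and 9695 none. GRCm38.p6 served for current symbols, gene order and promoter windows. Of all values 0.710% were missing, none of them a member's. The 23053 probes measured on at least 90% of the arrays were used, and a missing value was set to the mean of its probe. Fits used limma 3.58.1 in R 4.3.3, called at an adjusted p under 0.05, with scores as the mean z of a list's genes. Pearson's r and Spearman's rho had 100000 two-sided permutations of animals in Python 3.11.15. A gene was clustered where 2 components gained over 10 in the Bayesian information criterion with means at least 3 SD apart, and clustered animals under 6 were left out of r. Discrete calls needed outer means at least 2 SD apart. The limma fit on B2m and the discrete rule were tested on simulated data. Noise there was independent between probes and the components were widely spaced, unlike in these data.

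The members, lists and tests were chosen with earlier results of these data known. The rule for named genes took all members, measured genes of the class I lists, the 20 genes closest to B2m and the 5 farthest, and the 5 closest to H2-K1, H2-Bl, Psmb8, Psmb9 and Tapbp with animal 208. Closest genes without animal 208, single genes of the interferon and proteasome lists and single animals were chosen after their values were seen. The alternatives tried were other sets of arrays, scalings, filters, ranks, a robust fit and added covariates. Those that leave out animals 122, 151, 178, 213, 243, 336 or 348, fit inside clusters, or combine leaving out animal 208 with a covariate or with the higher or lower animal numbers were chosen after seeing the data. Animals of 1 group without replicate arrays were the samples. The p-values therefore test relations across animals, and array noise and differences between animals cannot be told apart.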

Additional observations from a re-analysis of the deposited data

Results flagged for a closer look

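The array of animal 144, which enters no comparison of the report, only alternatives, and carried lung transcripts, lay above all other arrays for 7 of 9 members, against 19.4% of all probes. The log10 ratios on it were 1.09 for B2m, 1.04 for Psmb9, 0.994 for Psmb8, 0.963 for H2-T23, 0.871 for H2-K1, 0.754 for Tap1 and 0.642 for Tap2. Tapbp and H2-Bl were the exceptions, at -0.156 and -0.297. The lymphocyte and NK cell markers had a median of 0.709 on this array and the endothelial markers 0.435, both above the range of the other 247 arrays without animal 208. Their part in the member values was not tested.

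The slope on B2m differed between the higher and the lower animal numbers for Tap1 and H2-T23 with animal 208. The slope among the higher numbers was larger by 0.274 ± 0.0706 for Tap1 (SE, limma adjusted p = 0.0182) and by 0.327 ± 0.102 for H2-T23 (limma adjusted p = 0.0447). Without animal 208, which has one of the higher numbers, the differences were 0.0750 ± 0.0691 and 0.0684 ± 0.102 (limma adjusted p = 0.664 and 0.810).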

How the results depend on the processing

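Of 63 counts under an alternative, 51 stayed within 1.5 times the reported count and 12 did not. The count of members passing on B2m was 5 or 6 under all alternatives run. On the interferon score it was 4 among the lower animal numbers, with or without animal 208, against 7. On animal number it was 1 with gene means, centred and scaled arrays, quantile normalization or a robust fit (Tapbp) and without the 12 arrays of largest SD (Tap2), against 0. With ranks, the calls on cell type scores were 13, against 20. The differing B2m slopes were 0 without animal 208, against 2. Members among the most variable 10% of probes were 1 without animal 208 and 4 with animal 144, against 2. Members in clusters were 2 without animal 208, against 8. Tapbp's slope on B2m, not called in any of these fits, turned to -0.00249 with the microglia and endothelium scores added and to -0.0195 with animal 144, against 0.0497. Its slope on the interferon score was 0.00430 among the higher animal numbers without animal 208, against -0.0105.

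Over all probes, the number passing on the interferon score was 1455, and between 185 (higher animal numbers without animal 208) and 9749 (with animal 144) otherwise. On B2m it was 10039, and 5051 and 4544 among the higher numbers with and without animal 208. On animal number it was 3002, and 4518 with centred and scaled arrays and 4676 with a robust fit. The causes of these changes were not tested. No paired analysis was possible because the animals form 1 group with 1 array each. Signal over background is unknown, so a dim probe cannot be told from a stable gene.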
